A study of Homo sapiens with 12 samples.

Results

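The response of 10 genes of the epithelial-mesenchymal transition to progestin and to CHD8 depletion was followed in T47D-MTVL, a human breast cancer line. They are the transcription factors SNAI1, SNAI2, TWIST1, ZEB1 and ZEB2, and the markers FN1, VIM, ACTA2, MYLK and COL1A1. These are 10 of the 18417 genes that a probe set of the array names alone. They were taken by gene symbol, from a list drawn up with earlier results of these data known. Only ZEB2 had 2 probe sets, and the brighter of them, by the mean of the 12 arrays, stands for the gene. The line is luminal and progesterone receptor positive and carries a single integrated copy of a luciferase gene driven by the MMTV promoter, so all groups share that transgene and 1 cell line. The 4 conditions were siCt EtOH, siCt R5020, siCHD8 EtOH and siCHD8 R5020. In siCt the cells received a control siRNA, and in siCHD8 a single siRNA sequence against CHD8, a chromatin remodeller of the CHD family of ATPases. All cells were kept for 48 h in medium without serum or phenol red and then given 10 nM R5020, a synthetic progestin, or ethanol (EtOH, the vehicle) for 6 h. Each condition had 3 arrays, labelled as biological replicates. The p-values rest on the spread of replicates within conditions, estimated from all 12 arrays together and moderated across probe sets.

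In the epithelial-mesenchymal transition, epithelial cells loosen their junctions and take on features of migrating mesenchymal cells. SNAI1 and SNAI2 (zinc finger), TWIST1 (basic helix-loop-helix) and ZEB1 and ZEB2 (zinc finger and homeodomain) are its classical transcription factors, and SNAI and ZEB proteins repress the E-cadherin gene CDH1 through E-boxes. FN1 (fibronectin) and COL1A1 (the alpha 1 chain of type I collagen) belong to the matrix, VIM (vimentin) to the intermediate filaments, and ACTA2 (smooth muscle alpha actin) and MYLK (myosin light chain kinase) to the contractile machinery.

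The miR-200 microRNAs hold ZEB1 and ZEB2 down in epithelial cells, and they are shown because both factors were dim on every array here. Whether the microRNAs have a part in that was not tested. Their mature sequences fall into groups by the seed (bases 2 to 8, in capitals), with 2 members sharing AACACUG and 3 sharing AAUACUG. The sequences are those of RefSeq, from 5′ to 3′.
hsa-miR-141-3p (chr12:6964155-6964176, plus strand, GRCh38.p14): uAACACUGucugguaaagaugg
hsa-miR-200a-3p (chr1:1167916-1167937, plus strand, GRCh38.p14): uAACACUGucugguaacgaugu
hsa-miR-200b-3p (chr1:1167160-1167181, plus strand, GRCh38.p14): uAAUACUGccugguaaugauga
hsa-miR-200c-3p (chr12:6963742-6963764, plus strand, GRCh38.p14): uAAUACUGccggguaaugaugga
hsa-miR-429 (chr1:1169055-1169076, plus strand, GRCh38.p14): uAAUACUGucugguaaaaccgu

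The promoters of 6 of the 10 genes were in the RefSeq table (GRCh38.p14), as 13 windows of 250 bases before a transcription start (7 for ZEB1, 2 for ACTA2 and 1 each for ZEB2, FN1, VIM and MYLK). The windows were searched on both strands for the E-box CACCTG. They were also searched for the hexamer TGTTCT, part of the element that the progesterone receptor binds, and for the CArG box, which serum response factor (SRF) binds. The CArG box was taken strictly as CC, 6 bases of A or T, and GG, so boxes that differ from it by 1 base were not counted. The E-box was found in 2 windows, both of ZEB1, against 17.5% of all 35116 promoter windows. The receptor hexamer was found in 1 window, of ACTA2 (12.4% of all windows), and the CArG box in 1 window, of MYLK (1.16% of all windows). The ACTA2 and MYLK windows are given because these are the contractile members, with the match in capitals. The other ACTA2 window held no exact match to the 3 patterns and has no capitals. It does hold ccctatatgg and ccttgtttgg, which each differ from the strict CArG pattern by 1 base, so it cannot be said to lack CArG boxes. Such a match is a description of letters and not a site of binding.
ACTA2 (chr10:88991338-88991587, minus strand, receptor hexamer in capitals): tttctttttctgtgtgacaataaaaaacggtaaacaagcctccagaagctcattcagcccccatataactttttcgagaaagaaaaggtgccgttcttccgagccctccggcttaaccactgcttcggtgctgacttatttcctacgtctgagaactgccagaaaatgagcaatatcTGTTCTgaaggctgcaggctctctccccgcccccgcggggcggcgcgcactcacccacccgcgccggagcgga
ACTA2 (chr10:88952774-88953023, minus strand, no match): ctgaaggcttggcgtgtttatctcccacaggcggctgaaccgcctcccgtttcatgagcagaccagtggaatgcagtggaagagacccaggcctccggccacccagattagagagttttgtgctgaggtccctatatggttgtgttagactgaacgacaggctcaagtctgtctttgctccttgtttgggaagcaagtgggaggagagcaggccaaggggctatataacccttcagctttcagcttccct
MYLK (chr3:123620549-123620798, minus strand, CArG box in capitals): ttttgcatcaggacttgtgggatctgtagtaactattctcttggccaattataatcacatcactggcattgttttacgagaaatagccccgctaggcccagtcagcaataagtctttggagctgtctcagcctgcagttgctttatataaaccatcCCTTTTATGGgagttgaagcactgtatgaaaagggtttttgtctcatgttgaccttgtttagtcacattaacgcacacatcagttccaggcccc

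Values are log2 intensities, normalised by RMA, of Affymetrix Human Gene 1.0 ST arrays. The 12 array medians lay between 4.52 and 4.62, and only the number of arrays is available to judge precision. Differences between conditions were tested with limma on all 12 arrays, with Benjamini-Hochberg adjustment over 21214 probe sets, and a gene was called at an adjusted p under 0.05. These are bulk samples, so a smaller share of cells with a transcript and less of it in each cell cannot be told apart. CHD8, the gene targeted by the siRNA, stood at 5.70, 5.71 and 5.91 with siCt and at 5.42, 5.11 and 5.04 with siCHD8 in vehicle. With R5020 it stood at 5.52, 5.24 and 5.29 with siCt and at 4.77, 4.62 and 4.81 with siCHD8. The arrays of the siRNAs did not overlap in either medium. The siCHD8 level of CHD8 was 66.9% of the siCt level in vehicle (log2 difference -0.58, SE 0.13, limma adjusted p = 0.0711) and 65.3% in R5020 (-0.62, SE 0.13, adjusted p = 0.0627), so neither difference alone passed the limit. They were called in 5 and 9 of 23 alternatives (adjusted p 0.0256 to 0.405 and 0.00610 to 0.259 over all of them), among them both without siCHD8 EtOH replicate 1 (0.0472 and 0.0366) and the one in R5020 without siCt EtOH replicate 3 (0.0493). The mean of the 2 differences, added after the data had been seen, was -0.60 (SE 0.09, adjusted p = 0.00403) and was called in all 22 alternatives. CHD8 itself fell with R5020, by 0.42 in siCt (adjusted p = 0.0349) and by 0.46 in siCHD8 (adjusted p = 0.0258).

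The cells carried the markers of their label. The mean log2 intensity of 9 luminal markers lay between 8.97 and 9.77 on the 12 arrays, and E-cadherin (CDH1) averaged 10.2. As a reference for dim probe sets, 360 probe sets of olfactory receptor genes were used, of which 95% lay at or under 3.10. SNAI2, ZEB1, ZEB2 and VIM were at or under this limit on all 12 arrays. By their means over the 12 arrays, SNAI1 and MYLK lay above it but under 4.59, the median of all probe sets tested, and TWIST1, FN1, ACTA2 and COL1A1 lay above that median. Probe sets differ in how well they bind, so these positions are no measure of which gene is more abundant. As for other cell types, fibroblast markers averaged 2.29 to 2.58 over the 12 arrays, with DCN, LUM and PDGFRA among the 5 of 9 at or under the olfactory receptor limit. Smooth muscle and pericyte markers averaged 2.85 to 3.21, with 2 of 5 at or under the limit, and blood and endothelial markers 2.16 to 2.51, with 8 of 9. The 2 basal and myoepithelial markers that were measured went the other way. They averaged 4.01 to 4.58, with 0 at or under the limit.

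**Figure D1:**
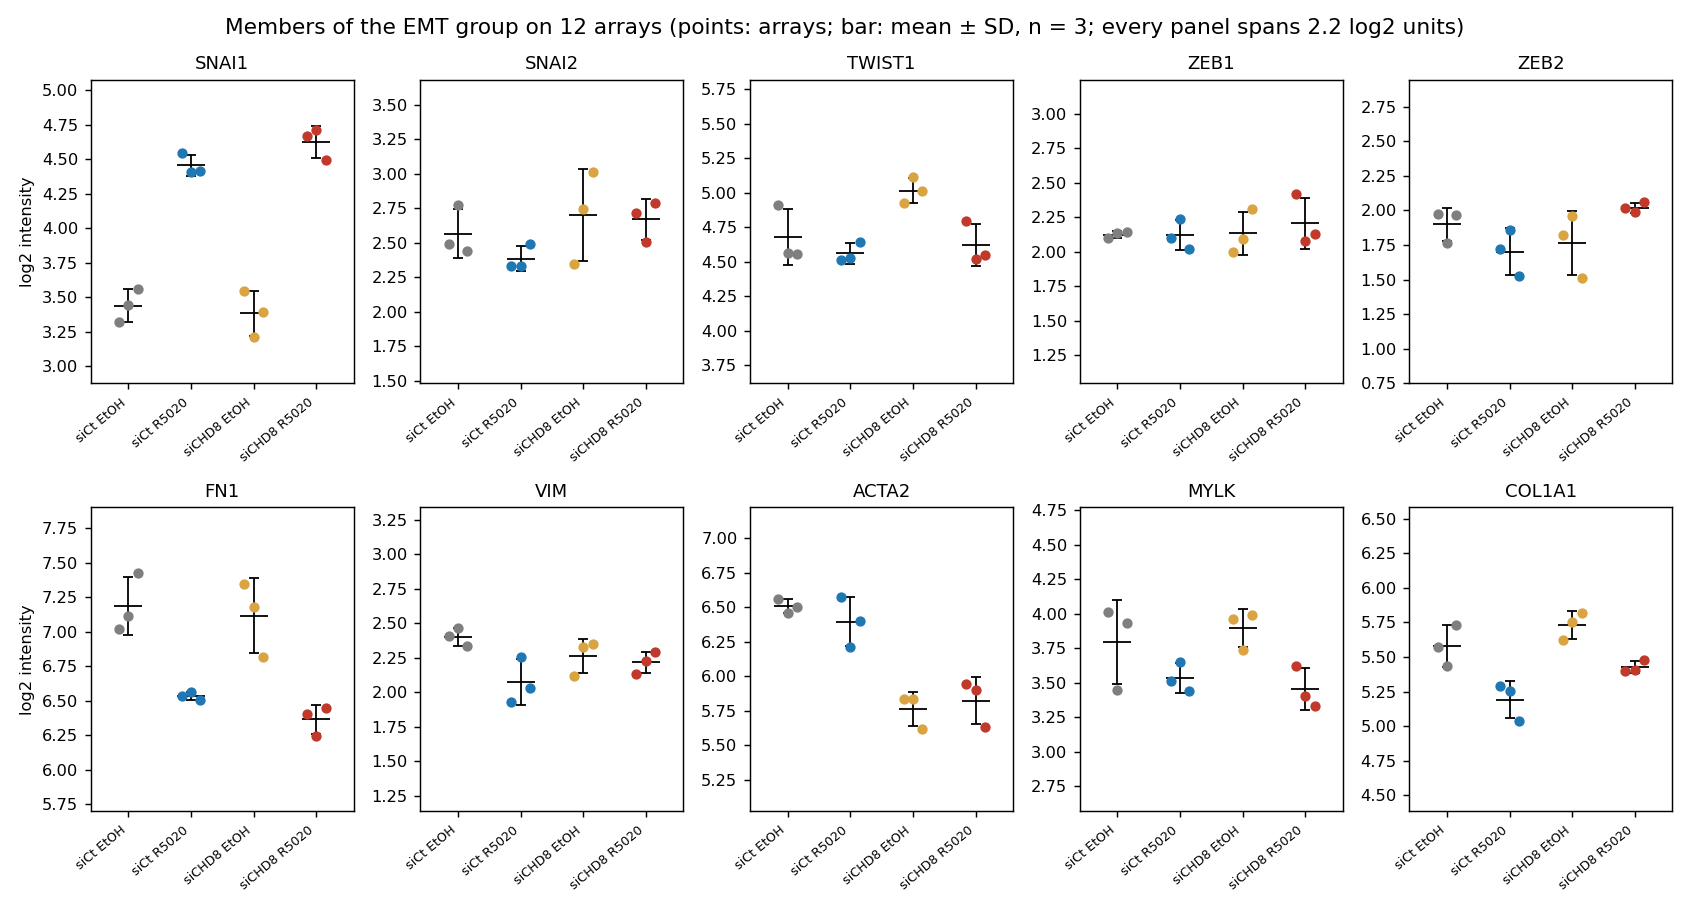
Log2 intensity (vertical axis, RMA) of the 10 genes on each of the 12 arrays, by condition, with 1 point per array and a bar at the mean ± SD of the 3. SNAI1 was higher and FN1 lower on every R5020 array than on any vehicle array of the same siRNA, and ACTA2 was lower on every siCHD8 array than on any siCt array of the same medium.

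With the control siRNA, 6 h of R5020 raised SNAI1 and lowered FN1 and COL1A1. SNAI1 rose 2.02-fold, while FN1 went to 63.7% and COL1A1 to 76.5% of the vehicle level. So 1 gene rose, 2 fell and 7 did not pass the test, beside 14.1% of all probe sets called in this comparison. The share of the 10 was not tested against that of all probe sets. The median difference over the 10 genes was -0.19, and over all probe sets -0.05.

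In siCHD8, SNAI1 rose 2.36-fold, and FN1 fell to 59.5% and TWIST1 to 76.0% of the vehicle level. Again 1 gene rose, 2 fell and 7 did not pass, beside 11.5% of all probe sets. The median was -0.04 over the 10 genes and -0.02 over all probe sets. The R5020 arrays did not overlap the vehicle arrays for 4 genes in siCt (1 higher, 3 lower), beside 33.9% of all probe sets, and for 6 genes in siCHD8 (2 higher, 4 lower), beside 27.2%.

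SNAI1, the zinc finger repressor, had vehicle values of 3.32, 3.45 and 3.56 and R5020 values of 4.54, 4.40 and 4.42 in siCt. The siCHD8 arrays read 3.54, 3.21 and 3.39 with vehicle and 4.67, 4.71 and 4.49 with R5020. All 6 hormone arrays lay above all 6 vehicle arrays. The rise was 1.02 on the log2 scale in siCt (SE 0.12, limma adjusted p = 1.86e-05) and 1.24 in siCHD8 (SE 0.12, adjusted p = 2.57e-06), and it was called under each of the 22 alternative analyses run for it in either siRNA. The knockdown differences of SNAI1 did not pass the test, at -0.06 in vehicle (95% interval -0.30 to 0.19) and 0.17 in R5020 (-0.08 to 0.42). The difference between the hormone responses, siCHD8 minus siCt, was 0.23 (SE 0.16, adjusted p = 0.654).

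FN1, the fibronectin gene, moved the other way. Its vehicle values in siCt were 7.02, 7.11 and 7.42, and its R5020 values 6.54, 6.56 and 6.50. In siCHD8 it read 7.35, 7.18 and 6.82 with vehicle and 6.40, 6.25 and 6.45 with R5020. Here too no hormone array reached a vehicle array, and the 3 siCHD8 R5020 arrays were below the 3 siCt R5020 arrays. FN1 fell by 0.65 in siCt (SE 0.14, adjusted p = 0.00484) and by 0.75 in siCHD8 (SE 0.14, adjusted p = 0.00196), and was called in both under all 23 alternatives. The knockdown differences were -0.07 in vehicle (adjusted p = 0.897) and -0.17 in R5020 (adjusted p = 0.616), and the responses differed by -0.10 (SE 0.20, adjusted p = 0.884).

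COL1A1, the type I collagen chain, read 5.57, 5.43 and 5.73 with vehicle against 5.29, 5.25 and 5.03 with R5020 in siCt. In siCHD8 it read 5.62, 5.76 and 5.82 against 5.40, 5.40 and 5.48. Both sets of hormone arrays lay below the vehicle arrays of the same siRNA. The fall of 0.39 in siCt was called (SE 0.11, adjusted p = 0.0319), whereas the difference of -0.31 in siCHD8 was not (SE 0.11, adjusted p = 0.108), and the responses differed by 0.08 (SE 0.16, adjusted p = 0.880). The call in siCt was lost in 9 of 23 alternatives, including without siCt EtOH replicate 1 (adjusted p = 0.0739) or 3 (0.110) and without siCt R5020 replicate 2 (0.0564) or 3 (0.149).

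TWIST1, the helix-loop-helix factor, read 4.91, 4.57 and 4.56 with vehicle and 4.51, 4.53 and 4.65 with R5020 in siCt, and these overlapped. In siCHD8 it read 4.93, 5.11 and 5.01 with vehicle and 4.80, 4.52 and 4.55 with R5020, which did not overlap. The siCHD8 difference of -0.40 (SE 0.12) only just passed the test (adjusted p = 0.0492), and the siCt difference of -0.12 did not (adjusted p = 0.576). TWIST1 responses were -0.28 apart (95% interval -0.65 to 0.09, adjusted p = 0.611), so a response particular to siCHD8 was not shown. The call was lost in 14 of 23 alternatives, with adjusted p up to 0.186 (without siCHD8 R5020 replicate 2), and also on leaving out siCt EtOH replicate 2, any siCt R5020 or siCHD8 EtOH replicate, or siCHD8 R5020 replicate 3 (0.0534 to 0.166). The vehicle arrays of siCHD8 were all above those of siCt (0.34, SE 0.12, adjusted p = 0.270).

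MYLK, the kinase that activates myosin II, read 4.01, 3.44 and 3.93 with vehicle and 3.51, 3.65 and 3.44 with R5020 in siCt. Replicate 2 of siCt EtOH stood apart from the other two. In siCHD8 it read 3.96, 3.73 and 3.99 against 3.62, 3.41 and 3.33, without overlap. The differences of -0.26 (SE 0.15, adjusted p = 0.266) and -0.44 (SE 0.15, adjusted p = 0.0672) did not pass. The siCt difference was called in 1 of 22 alternatives and the siCHD8 difference in 2 of 22. Without siCt EtOH replicate 2 both were called, at -0.43 (adjusted p = 0.0408) and -0.44 (0.0241). The siCHD8 difference does not use that array, which enters its test only through the shared estimate of the spread. The other call in siCHD8 came with probe sets at or under the olfactory receptor limit left out (0.0489).

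VIM, the vimentin gene, was dim throughout, at 2.41, 2.46 and 2.34 with vehicle and 1.93, 2.26 and 2.03 with R5020 in siCt. Its hormone arrays were all below the vehicle arrays, but the difference of -0.33 missed the limit (SE 0.11, adjusted p = 0.0667). It was called in 3 of 21 alternatives, with array weights (-0.35, adjusted p = 0.0382), without siCt R5020 replicate 2 (-0.42, adjusted p = 0.0374) and without siCHD8 EtOH replicate 1 (-0.33, adjusted p = 0.0486). In siCHD8 the values 2.12, 2.32 and 2.35 with vehicle and 2.14, 2.23 and 2.29 with R5020 overlapped (-0.05, adjusted p = 0.877).

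**Figure D2:**
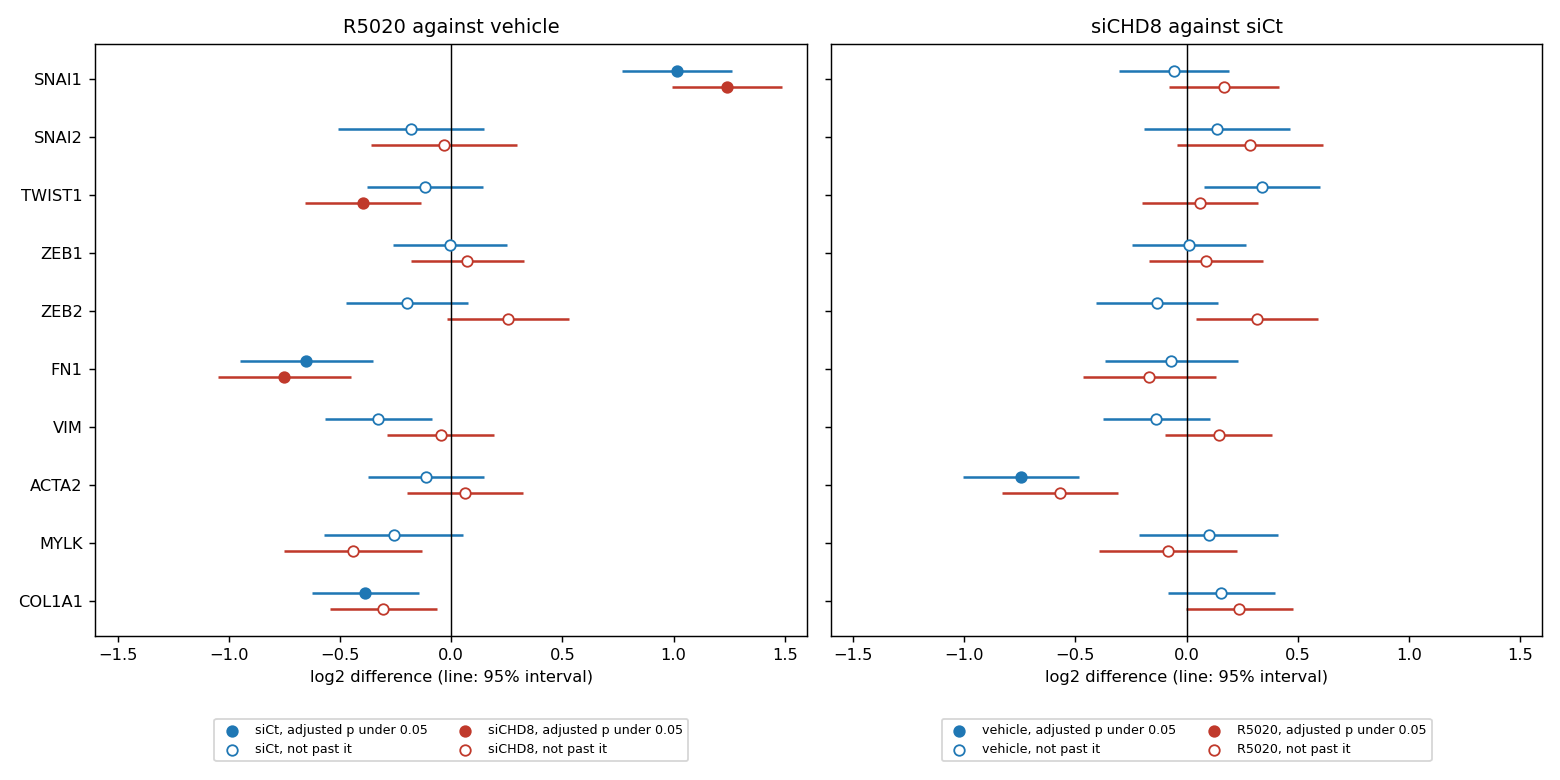
Log2 differences (horizontal axis, with 95% intervals as lines) of the 10 genes for R5020 against vehicle (left, by siRNA) and siCHD8 against siCt (right, by medium). Filled points passed an adjusted p of 0.05: SNAI1 and FN1 in both siRNAs, COL1A1 in siCt and TWIST1 in siCHD8 for the hormone, and ACTA2 in vehicle for the knockdown.

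Taking the mean of the siCt and siCHD8 responses, a comparison added after these values had been seen, 5 of the 10 genes were called, 1 higher and 4 lower, beside 20.1% of all probe sets. SNAI1 rose by 1.13 (SE 0.08, limma adjusted p = 6.74e-08) and FN1 fell by 0.70 (SE 0.10, adjusted p = 8.37e-05). COL1A1 fell by 0.35 (SE 0.08, adjusted p = 0.00537). These 3 calls held in all 21, 22 and 22 alternatives run for each. MYLK fell by 0.35 (adjusted p = 0.0246), a call kept in 12 of 21 alternatives and lost without siCt EtOH replicate 1 or 3, siCt R5020 replicate 1 or 3, siCHD8 EtOH replicate 3 or siCHD8 R5020 replicate 2 or 3 (0.0527 to 0.0661). TWIST1 fell by 0.26 (adjusted p = 0.0490), a call kept in 9 of 22 and lost without siCt EtOH replicate 1, any siCt R5020 replicate, or replicate 2 or 3 of siCHD8 EtOH or of siCHD8 R5020 (0.0583 to 0.124).

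SNAI2, ZEB1 and ZEB2, the last by its brighter probe set, were not called in any comparison. SNAI2 ranged from 2.33 to 3.01 over the 12 arrays, ZEB1 from 2.00 to 2.42 and ZEB2 from 1.51 to 2.06, and all 3 ranges lie under the olfactory receptor limit. The SNAI2 response was -0.18 in siCt (95% interval -0.51 to 0.15) and -0.03 in siCHD8 (-0.36 to 0.29), and that of ZEB1 was -0.01 (-0.26 to 0.25) and 0.07 (-0.18 to 0.33). ZEB2 differed by -0.20 in siCt and 0.26 in siCHD8 (adjusted p = 0.343 and 0.267). Its responses differed by 0.45 (SE 0.18, unadjusted p = 0.0254, adjusted p = 0.506), and ZEB2 was the 1 gene of the 10 with an unadjusted p under 0.05 for the difference of responses, beside 9.56% of all probe sets. The dimmer probe set of ZEB2 gave -0.44 in siCt (adjusted p = 0.0627) and -0.32 in siCHD8 (adjusted p = 0.231), so the sign in siCHD8 turned with the probe set. Its mean response was called (-0.38, SE 0.11, adjusted p = 0.0184), in all 19 alternatives (adjusted p up to 0.0498), although it too lay under the olfactory receptor limit by its mean. The ZEB2 probe sets thus gave different calls.

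The miR-200 rows of the array, looked at after the values of ZEB1 and ZEB2 had been seen, measure transcript at the microRNA genes and not the mature microRNAs printed above. By their means over the 12 arrays, MIR200A (1.64) and MIR141 (2.07) lay under the olfactory receptor limit of 3.10. MIR200C (3.15), MIR429 (3.45) and MIR200B (4.20) lay above it. None of the 5 was called by limma for R5020 in either siRNA, for the knockdown in either medium or for the difference of responses. At an unadjusted p under 0.05 were MIR141 and MIR429 in siCt (log2 differences of 0.34 and -0.35) and MIR141 and MIR200C in siCHD8 (0.32 and 0.46) for R5020, beside 27.9% and 22.4% of all probe sets. For the knockdown they were MIR141 in vehicle (0.31) and MIR429 and MIR200C in R5020 (0.42 and 0.34), all with higher levels in siCHD8, beside 12.1% and 13.9%, and for the difference of responses there were 0. In the mean of the R5020 responses MIR141, dim at an average of 2.07, rose by 0.33 (adjusted p = 0.0272), a call lost in 7 of 20 alternatives, among them without siCt EtOH replicate 2 or 3, siCt R5020 replicate 3, siCHD8 EtOH replicate 1 or siCHD8 R5020 replicate 1 (0.0506 to 0.0739). MIR200C stood at 2.77, 2.95 and 3.28 with vehicle and 3.59, 3.24 and 3.55 with R5020 in siCHD8. These overlapped (0.46, SE 0.15, adjusted p = 0.0579), and in siCt the difference was 0.09 (adjusted p = 0.747).

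ACTA2 read lower with siCHD8 than with siCt. The arrays used a single siRNA sequence against CHD8, and other effects of that sequence were not tested. In vehicle ACTA2 was the 1 gene of the 10 called, at 59.7% of the siCt level, beside 0.292% of all probe sets. In R5020 none of the 10 was called by limma, beside 0.189% of all probe sets, with 2 genes (ZEB2 and ACTA2) at an unadjusted p under 0.05, beside 13.9%. For the difference of responses none of the 10 was called, beside 0% of all probe sets. Arrays of the siRNAs did not overlap for 2 genes in vehicle (1 higher, 1 lower), beside 13.7% of all probe sets, and for 5 genes in R5020 (3 higher, 2 lower), beside 27.6%. Medians over the 10 genes were -0.02 in vehicle and 0.12 in R5020, against -0.01 and 0.01 over all probe sets.

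ACTA2, the actin of smooth muscle and myofibroblasts, stood at 6.56, 6.46 and 6.50 in siCt with vehicle and at 5.83, 5.84 and 5.62 in siCHD8. With R5020 it stood at 6.57, 6.21 and 6.40 in siCt and at 5.94, 5.90 and 5.63 in siCHD8. All 6 siCHD8 arrays were below all 6 siCt arrays, whichever the medium. The fall was 0.74 in vehicle (SE 0.12, adjusted p = 0.0203), and the difference in R5020 was -0.57 (SE 0.12, adjusted p = 0.0740). R5020 itself gave -0.11 in siCt (adjusted p = 0.594) and 0.06 in siCHD8 (adjusted p = 0.853), and the knockdown differences in the 2 media were 0.17 apart (95% interval -0.20 to 0.54, adjusted p = 0.748).

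The vehicle call of ACTA2 was lost in 9 of 23 alternatives (adjusted p 0.00656 to 0.162 over all of them), among them without siCt EtOH replicate 1 (0.0647), 2 (0.0503) or 3 (0.0640) and without siCHD8 EtOH replicate 2 (0.0571) or 3 (0.0578). At an adjusted p under 0.01 with a fold over 1.5, none of the 10 genes was called, beside 0.0471% of all probe sets. In the fits with an array left out the difference stayed between -0.78 and -0.67. The mean of the knockdown differences over vehicle and R5020, added after the data had been seen, was -0.66 (SE 0.09, adjusted p = 0.00196), and it was called under all 22 alternatives (adjusted p 0.000431 to 0.0121), beside 1.76% of all probe sets.

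The other actins were looked at after the ACTA2 values, since their transcripts are alike in sequence and the sources used here do not name the probes of a probe set. ACTB and ACTG1, the actins of the general cytoskeleton, differed by -0.11 and -0.07 between the siRNAs in vehicle and by -0.10 and -0.06 in R5020. ACTG2, the enteric smooth muscle actin, differed by -0.21 and 0.06. Skeletal ACTA1 differed by 0.01 and 0.20, and cardiac ACTC1 by -0.18 and -0.11. None of these 5 passed the test, and the limma adjusted p lay between 0.487 and 0.989.

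**Figure D3:**
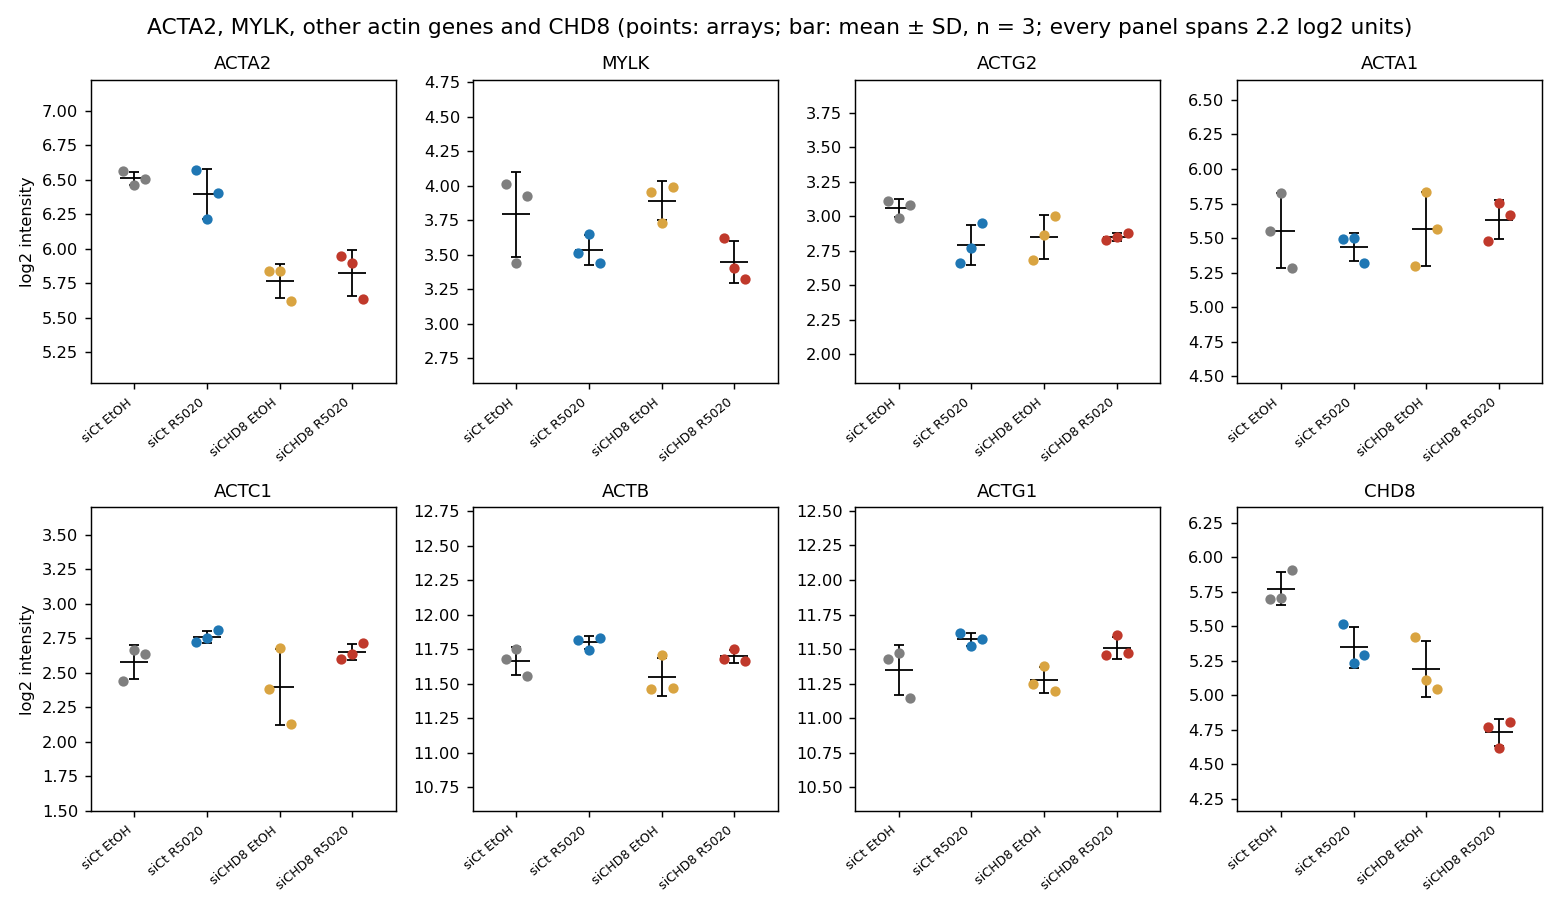
Log2 intensity (vertical axis, RMA) of the 6 actin genes, MYLK and CHD8 on each of the 12 arrays, by condition, with 1 point per array and a bar at the mean ± SD of the 3. ACTA2 was lower on all 6 siCHD8 arrays than on all 6 siCt arrays.

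When the 4 conditions were ordered by mean level, SNAI1 ran from siCHD8 R5020 through siCt R5020 and siCt EtOH to siCHD8 EtOH, with a gap between arrays at the change of medium only. FN1 ran from siCt EtOH and siCHD8 EtOH, which overlapped, to siCt R5020 and then siCHD8 R5020, each apart from its neighbour. ACTA2 ran from siCt EtOH and siCt R5020, which overlapped, across a gap to siCHD8 R5020 and siCHD8 EtOH, which overlapped as well. COL1A1 was highest in siCHD8 EtOH, and its 1 gap set siCt R5020 below the other conditions. TWIST1 was highest in siCHD8 EtOH, which stood apart, while the other 3 conditions overlapped. ZEB2 had 1 gap, below siCHD8 R5020. SNAI2, ZEB1, VIM and MYLK showed no gap between neighbours in the order.

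The genes whose 12 values followed a member most closely were sought for SNAI1, FN1 and ACTA2, the members called with a fold over 1.5. Likeness was the root mean square difference of values centred on each gene's own mean over 12 arrays, among 18416 other genes. Because the genes were picked for this likeness, their differences between conditions follow from the choice and are no separate result. For SNAI1 the nearest were RBPMS (0.0935), SLC7A8 (0.108) and SLC39A14 (0.112), and the spread of SNAI1 itself within conditions was 0.101 by the same measure. RBPMS differed between R5020 and vehicle by 1.07 in siCt and 1.12 in siCHD8. For FN1 they were MAGI3 (0.1004), AMOTL2 (0.101) and ATF7IP (0.101), with a spread of 0.147 for FN1. For ACTA2 they were SLC1A5 (0.120), STC2 (0.132) and TMEM129 (0.150), with a spread of 0.115 for ACTA2. SLC1A5 differed between siCHD8 and siCt by -0.56 in vehicle and -0.46 in R5020, and STC2 by -0.67 and -0.57.

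**Figure D4:**
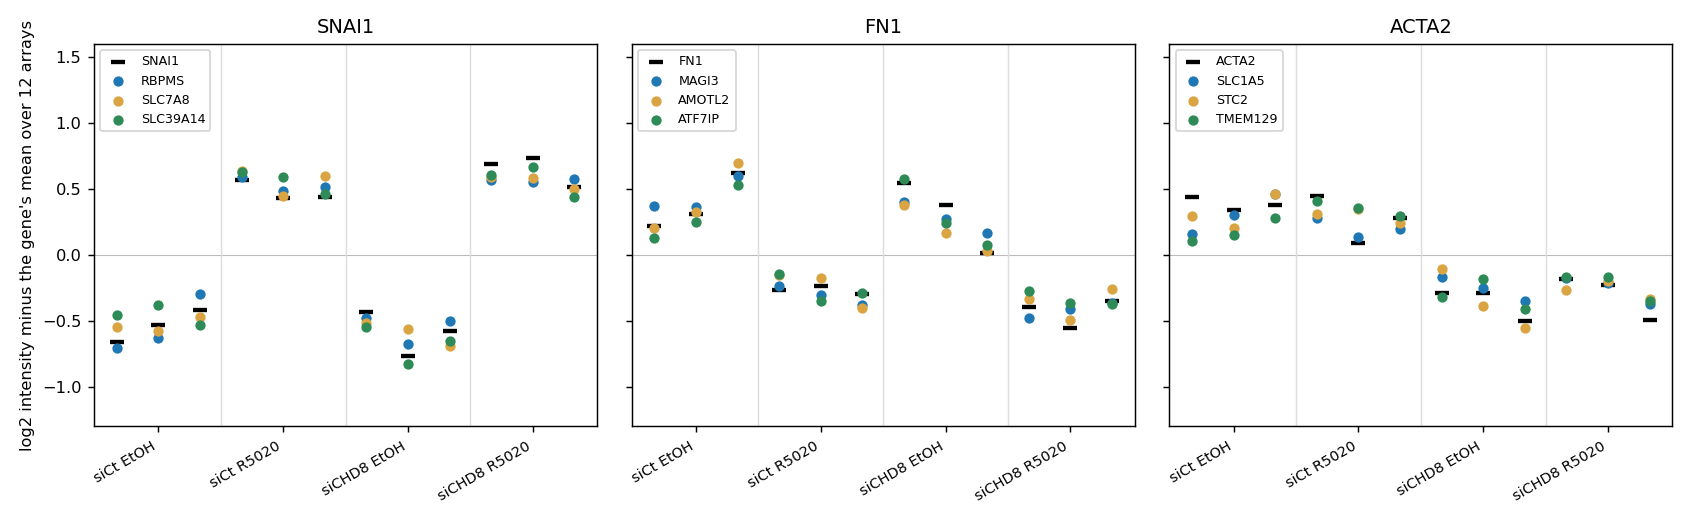
Log2 intensity minus the gene's own mean over 12 arrays (vertical axis) for SNAI1, FN1 and ACTA2 (bars) and the 3 genes closest to each (points), 1 position per array. The genes near SNAI1 and FN1 were separated by the hormone and those near ACTA2 by the siRNA, which follows from picking them for likeness to the member.

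Of 12 other transcription factors of the transition, 2 rose and 2 fell with R5020 in each siRNA. Over all probe sets, 14.1% were called in siCt and 11.5% in siCHD8, and no list was tested against these shares. TCF4, a helix-loop-helix partner of TWIST proteins, read 4.12, 4.21 and 4.33 with vehicle and 2.51, 2.67 and 2.99 with R5020 in siCt, a fall to 35.5% of the vehicle level (limma adjusted p = 4.84e-05). In siCHD8 it fell by 0.74 (adjusted p = 0.0167), a call lost in 6 of 22 alternatives, including without siCHD8 EtOH replicate 1 or 2 or siCHD8 R5020 replicate 1 or 2 (0.0546 to 0.0776). The 3 R5020 values in siCt all lay under the olfactory receptor limit. RUNX2, a factor of bone formation, fell by 0.65 and 0.51. SOX4 rose by 0.89 in siCt (adjusted p = 0.000118) and 0.66 in siCHD8, and SOX9 by 0.40 and 0.59. The SOX9 call in siCt was kept in 11 of 23 alternatives (adjusted p 0.00407 to 0.155) and lost without siCt EtOH replicate 1 or 2 or any 1 of the 6 R5020 arrays. The median of the list was -0.13 in siCt and -0.15 in siCHD8. None of the 12 was called by limma for the knockdown in either medium or for the difference of responses, where 1, 2 and 2 had an unadjusted p under 0.05, beside 12.1%, 13.9% and 9.56% of all probe sets.

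Of 26 genes of the epithelial state, 3 rose and 7 fell in siCt, and 3 rose and 9 fell in siCHD8. These counts stand beside 14.1% and 11.5% of all probe sets called. GRHL2, a grainyhead factor that maintains epithelial junctions, rose from 8.31, 8.47 and 8.32 to 9.73, 9.72 and 9.65 in siCt (1.33, SE 0.10, adjusted p = 2.3e-07) and by 1.27 in siCHD8. Its relative GRHL1 rose by 0.87 and 0.50 (the latter called in 14 of 23 alternatives, adjusted p up to 0.173, the highest without siCHD8 EtOH replicate 2), and the tight junction gene MARVELD3 by 0.82 and 0.73. Among those that fell were PATJ, a polarity scaffold, by 1.18 and 1.46, and ELF3, an epithelial ETS factor, by 0.69 and 0.90. ESRP2, a splicing regulator of epithelia, fell by 0.77 and 0.37. The keratin gene KRT18 fell by 0.56 and 0.67, and the junction gene TJP3 by 0.52 and 0.63. The claudin gene CLDN3 fell by 0.59 in siCt. So the list moved in both directions, with a median of -0.17 in siCt and -0.18 in siCHD8.

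CDH1, the target of SNAI and ZEB repression, read 10.2, 10.2 and 10.0 with vehicle and 9.93, 10.0 and 9.89 with R5020 in siCt. The siCt difference was -0.19 (adjusted p = 0.261). In siCHD8 it read 10.6, 10.5 and 10.3 with vehicle and 10.1 on all 3 R5020 arrays, a fall of 0.36 (adjusted p = 0.0387), which was called in 11 of 23 alternatives (adjusted p 0.00686 to 0.115) and lost without any 1 of the siCt R5020 or siCHD8 R5020 replicates or siCHD8 EtOH replicate 1 or 2. N-cadherin (CDH2) was dim, with a mean of 2.84 over the 12 arrays.

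Of 36 mesenchymal adhesion and matrix genes, 17 lay at or under the olfactory receptor limit by their mean over the 12 arrays. In siCt 2 rose and 2 fell, and in siCHD8 2 rose and 1 fell, with list medians of -0.14 and -0.08. Over all probe sets 14.1% and 11.5% were called, so these counts do not set the list apart. CD44, the hyaluronan receptor, had the largest difference of the list in siCt, from 6.70, 6.81 and 6.83 to 8.82, 8.67 and 8.86 in siCt (2.01, SE 0.10, adjusted p = 5.75e-09) and by 1.90 in siCHD8. LOX, which cross-links collagen, rose by 1.37 and 0.72 from vehicle values that all lay under that limit (2.09 to 2.84), the latter called in 14 of 21 alternatives (adjusted p up to 0.125, without siCHD8 R5020 replicate 2). ITGA5, a chain of the fibronectin receptor, fell by 0.79 (adjusted p = 0.00142) and 0.70 (adjusted p = 0.00446). COL6A1 fell by 0.42 in siCt (-0.12 in siCHD8), called in 15 of 23 alternatives (adjusted p up to 0.138, without siCt R5020 replicate 1).

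Among 24 contractile and SRF target genes, 3 rose and 2 fell in siCt, and 2 rose and 1 fell in siCHD8, with medians of -0.16 and 0.07. Of all probe sets 14.1% and 11.5% were called, and the count in siCHD8 is near that share. VCL (vinculin), which links actin to focal adhesions, rose from 6.79, 6.88 and 6.69 to 8.46, 8.38 and 8.29 in siCt (1.59, adjusted p = 2.37e-07) and by 1.54 in siCHD8. CALD1 (caldesmon), an actin-binding regulator of contraction, rose by 0.97 and 1.07, and CCN1, a matricellular protein, by 0.60 in siCt (0.36 in siCHD8, adjusted p = 0.0773). SRF itself fell by 0.50 and LMOD1, dim at a mean of 2.54, by 0.39 in siCt, and LPP by 0.52 in siCHD8. In the other siRNA the differences were -0.17, 0.17 and -0.16, and none passed. The 3 falls were called in 20 of 23, 15 of 21 and 21 of 23 alternatives, and were weakest without siCt R5020 replicate 3 (SRF, 0.0792, and LMOD1, 0.112) and siCHD8 R5020 replicate 2 (LPP, 0.0508).

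None of the 24 was called by limma for the knockdown in vehicle or in R5020, where 5 and 3 had an unadjusted p under 0.05, beside 12.1% and 13.9% of all probe sets. The 3 in R5020 are a share near that of all probe sets, and whether the 5 in vehicle differ from it was not tested. All had lower levels in siCHD8, and CALD1 was among both. In vehicle it read 4.03, 3.97 and 4.20 in siCt and 3.45, 3.62 and 3.34 in siCHD8, and in R5020 5.13, 5.01 and 4.96 in siCt and 4.69, 4.55 and 4.37 in siCHD8. The arrays of the siRNAs did not overlap in either medium. The differences of -0.59 (adjusted p = 0.0526) and -0.50 (adjusted p = 0.0976) did not pass singly. Their mean of -0.54, chosen after its values were seen, did (SE 0.08, adjusted p = 0.00499), in all 21 alternatives, as did that of ACTA2 at -0.66. The others in vehicle were SRF (-0.40), LMOD1 (-0.39) and the SRF cofactors MRTFB (-0.27) and MYOCD (-0.27), and in R5020 CCN1 (-0.46) and FHL2 (-0.25). LMOD1 and MYOCD lay under the olfactory receptor limit by their means of 2.54 and 2.10. These genes were named after the values were seen, and a joint fall of them was not tested.

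Of 25 TGF-beta signalling genes, 3 rose and 7 fell in siCt, and 1 rose and 6 fell in siCHD8. The shares of all probe sets called were 14.1% and 11.5%. TGFB2, a ligand that drives the transition in many epithelia, read 6.75, 6.60 and 6.61 with vehicle and 4.23, 3.86 and 3.83 with R5020 in siCt. That is a fall to 15.6% of the vehicle level (-2.68, SE 0.14, adjusted p = 7.25e-09), and in siCHD8 it fell by 3.18 on the log2 scale. TGFB3, another ligand, fell by 1.16 and 1.19. Of the receptors, TGFBR1 rose by 0.55 in siCt and differed by 0.14 in siCHD8 (adjusted p = 0.587). TGIF1, a repressor of SMAD-driven transcription, rose by 1.14 and 1.08. SMAD3, which carries the signal to the nucleus, fell by 0.88 and 0.69. PMEPA1, a target of the pathway, fell by 0.92 and 0.51. ID3 fell by 0.99 in siCt and differed by -0.38 in siCHD8 (adjusted p = 0.101). ID1 fell by 0.54 in siCHD8 and differed by -0.37 in siCt (adjusted p = 0.0553).

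With siCHD8, 1 gene of the TGF-beta list was called lower in each medium, beside 0.292% of all probe sets called in vehicle and 0.189% in R5020. PMEPA1, an inhibitor of the pathway that is also its target, read 6.48, 6.56 and 6.77 in siCt and 5.80, 5.90 and 5.70 in siCHD8 with vehicle, a fall of 0.80 (SE 0.15, adjusted p = 0.0416). That call was kept in 8 of 23 alternatives and lost without 10 of the 12 arrays in turn, all except siCt R5020 replicates 1 and 3 (adjusted p 0.0506 to 0.133). TGFBR3, the co-receptor betaglycan, read 3.84, 3.41 and 3.95 in siCt and 2.62, 2.92 and 2.59 in siCHD8 with R5020, a fall of 1.02 (SE 0.15, adjusted p = 0.0165), lost in 6 of 21 alternatives, among them without replicate 1 or 3 of siCt R5020 or of siCHD8 R5020 (0.0821 to 0.122). R5020 raised TGFBR3 by 1.47 in siCt (adjusted p = 4.72e-06), from 2.07, 2.31 and 2.38 with vehicle. The lower values of both differences lay under the olfactory receptor limit, so their sizes are those of the normalised values only. None of the 25 was called by limma for the difference of responses, where 6 had an unadjusted p under 0.05, among them TGFBR3 (-1.11), beside 9.56% of all probe sets. Over both media the mean knockdown effect was -0.60 for PMEPA1 (adjusted p = 0.00967) and -0.46 for TGFBR3 (adjusted p = 0.0378). No epithelial state gene and no mesenchymal adhesion or matrix gene was called by limma for the knockdown in vehicle or in R5020, and at an unadjusted p under 0.05 there were 6 and 2 of the 26 former and 3 and 4 of the 36 latter, beside the same 12.1% and 13.9% of all probe sets.

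**Figure D5:**
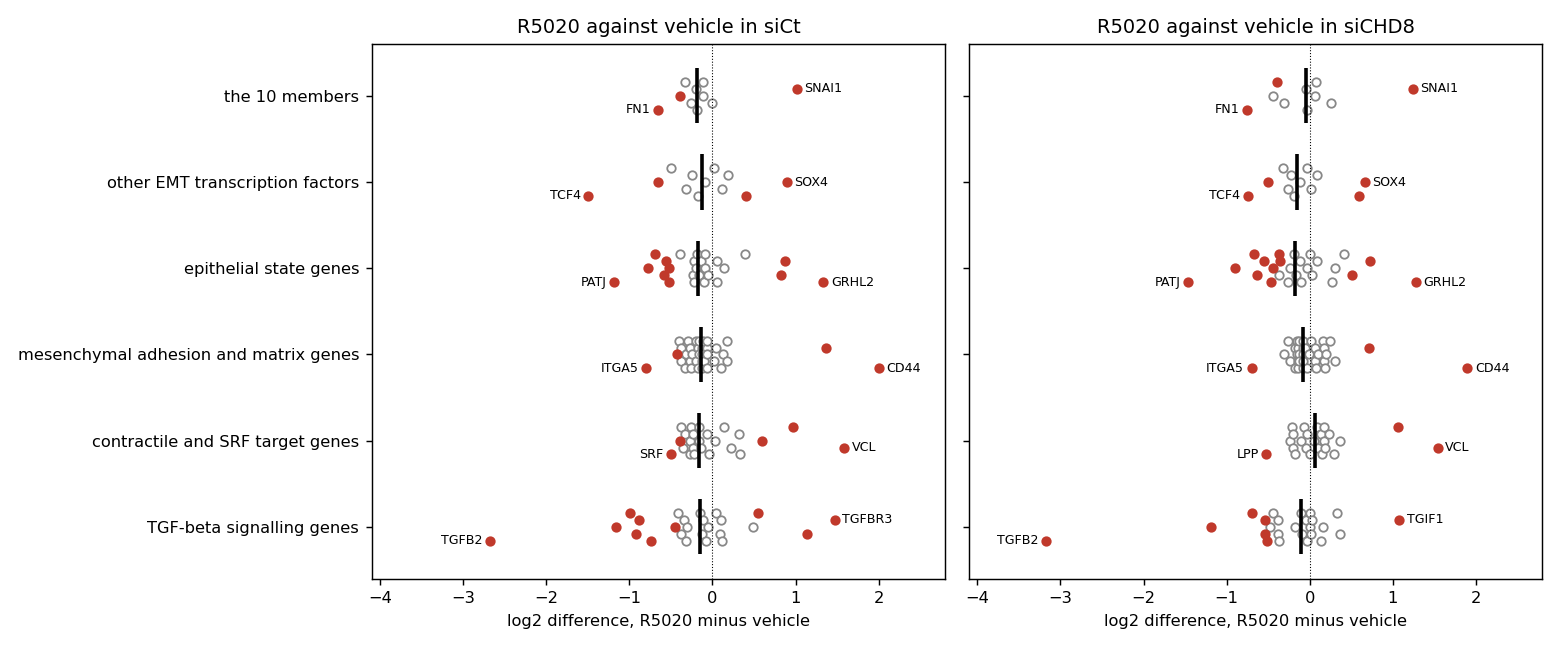
Log2 difference, R5020 minus vehicle in siCt (left) and siCHD8 (right), of the 10 genes and of every measured gene of the 5 lists related to the transition, with 1 point per gene, filled points for an adjusted p under 0.05 and a bar at the median. Each list had genes on both sides of 0, with TGFB2 at -2.68 and CD44 at 2.01 in siCt.

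The markers of other cell types were counted the same way. Some markers are also in the lists above, so the counts are not separate. Among luminal markers KRT8, KRT18, KRT19, EPCAM and CDH1 are also epithelial state genes. DCN, LUM, COL3A1, COL1A2 and COL6A3 are in both the fibroblast and the mesenchymal list. ACTG2, MYH11, DES and CNN1 are in both the smooth muscle and the contractile list. None of the 9 fibroblast and 5 smooth muscle and pericyte markers was called by limma for R5020, for the knockdown or for the difference of responses. At an unadjusted p under 0.05 were COL3A1 and ACTG2 with R5020 in siCt (-0.30 and -0.27) and COL3A1 for the knockdown in R5020 (0.26), beside 27.9% and 13.9% of all probe sets. Of 9 blood and endothelial markers, MS4A1, a B cell gene with a mean of 1.79, fell by 0.62 with R5020 in siCHD8 (adjusted p = 0.0356), a call lost without siCHD8 EtOH replicate 2 (0.165) and without siCHD8 R5020 replicate 1 (0.136) or 3 (0.106). Of the basal and myoepithelial markers, 2 were measured, and KRT14 fell by 0.62 with R5020 in siCt (-0.18 in siCHD8). For R5020, 14.1% of all probe sets were called in siCt and 11.5% in siCHD8. Some of the luminal markers moved with the hormone. In siCt 5 of 9 fell, with FOXA1 by 1.65, PGR by 1.23, ESR1 by 0.97, GATA3 by 0.73 and KRT18 by 0.56. The differences of KRT8 (-0.23), KRT19 (-0.09), EPCAM (0.06) and CDH1 (-0.19) in siCt did not pass. In siCHD8 6 of 9 fell and 0 were called higher, while KRT19 averaged 10.80 with vehicle and 11.10 with R5020. The mean level of the 9 markers per array was 9.64 to 9.77 with vehicle and 9.05 to 9.12 with R5020 in siCt. The part of that level in the differences of the 10 genes was not tested.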

How the data were processed

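RNA of T47D-MTVL cells in the 4 conditions, 3 arrays each, was hybridised by the authors to Affymetrix GeneChip Human Gene 1.0 ST arrays. The authors normalised the deposited log2 intensities by RMA (background correction, quantile normalisation between arrays, and a summary of the probes of each probe set). RMA is named in the submitters' processing notes as well; the sources used here give neither its version nor the probes of each set nor a filter. RMA draws low values together, so differences of dim probe sets can be understated. Depth has no counterpart on arrays, and the number of arrays limits the precision.

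Of the 33297 probe sets of the table, 19460 carry 1 gene symbol, 1754 several and 12083 none, by the platform annotation. The first of these groups names 18417 genes. Where a gene had more than 1, the probe set with the highest mean over the 12 arrays was used. Probe sets with at least 1 symbol (21214) were tested with limma 3.58.1 in R 4.3.3, with 1 mean per condition, 8 residual degrees of freedom, eBayes and Benjamini-Hochberg adjustment. The comparisons were R5020 against vehicle in each siRNA, siCHD8 against siCt in each medium, and the difference of the responses. The R5020 comparisons and the knockdown comparisons share arrays. The script was tested on simulated data.

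The members, the gene lists and the markers were chosen with earlier results of these data known. The text names all members, CHD8, and from each list up to 4 genes per direction and comparison with the largest differences among those called with non-overlapping arrays. CDH1, CDH2, the other actins, the miR-200 rows and the knockdown values of CALD1, SRF, LMOD1, MRTFB, MYOCD, CCN1 and FHL2 were added after the values were seen. Of the listed genes and markers, 10 were not matched to a probe set with 1 symbol and are not analysed here. The alternatives were median centring, quantile normalisation, filters on dim probe sets, all probe sets, 1 probe set per gene, the other ZEB2 probe set, array weights, trended and robust variance, only the conditions compared, the replicate block, leaving out each array, leaving out siCt EtOH replicate 3 together with siCHD8 EtOH replicate 1, and the study's limits. Sequences are from RefSeq tables of GRCh38.p14; 6 of 10 promoters and all 5 microRNAs matched, and promoters of SNAI1, SNAI2, TWIST1 and COL1A1 are not shown. Plots were made in matplotlib 3.10.9 (Python 3.11.15, pandas 2.3.3).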

Additional observations from a re-analysis of the deposited data

How the results depend on the processing

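Of 1095 recomputed differences of the 10 genes, 1021 kept their direction and their side of the threshold, 32 lost a call, 12 gained one and 30 turned sign, none of them with a call. Between 2 and 4 of the genes were called for R5020 in siCt on leaving out each array in turn, and 2 to 3 in siCHD8; averaging both siRNAs gave 5 in place of 3. For the knockdown in vehicle the count went from 1 to 0 with all probe sets, with array weights, with only the conditions compared, with the limits of 0.01 for the adjusted p and 1.5 for the fold, and without both siCt EtOH replicate 3 and siCHD8 EtOH replicate 1, and ranged from 0 to 1 on leaving out each array. For the knockdown in R5020 it went from 0 to 1, ACTA2, with dim probe sets under the median left out, with trended and robust variance, with array weights, without the same 2 arrays, and over both media. The causes of these changes were not tested. Some of the settings also differ in the number of probe sets or of arrays.

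Samples with the same replicate number did not deviate together: the correlation of their deviations lay between -0.25 and 0.20 and passed 0.1 in 4 of 18 pairs, and 5 of 12 arrays correlated best with their own number. The numbers were therefore not taken to pair the samples. With the replicate block, 2 genes were called for R5020 in siCt and 2 in siCHD8 (SNAI1 and FN1 in both), 1 for the knockdown in vehicle, 0 in R5020 and 0 for the difference of responses. COL1A1 in siCt (adjusted p = 0.0533) and TWIST1 in siCHD8 (adjusted p = 0.0699) lost their calls.

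The signs that turned were all of differences that had not been called. For R5020 in siCt, ZEB1 went from -0.0056 to 0.052 after median centring, 0.036 after quantile normalisation, 0.011 with array weights and 0.0028 without siCt EtOH replicate 3 and siCHD8 EtOH replicate 1. The other probe set of ZEB2 gave -0.32 for R5020 in siCHD8 and -0.10 for the knockdown in R5020. For the knockdown in vehicle, ZEB1 became -0.032 after quantile normalisation and FN1 0.0076 with array weights. The difference of responses of COL1A1 became -0.049 without those 2 arrays. On leaving out each array in turn, R5020 in siCt ranged from -0.18 to 0.00024 for TWIST1 and from -0.063 to 0.043 for ZEB1. In siCHD8 it ranged from -0.21 to 0.12 for SNAI2, from -0.033 to 0.16 for ZEB1 and from -0.012 to 0.16 for ACTA2. The knockdown in vehicle ranged from -0.14 to 0.029 for SNAI1, from -0.019 to 0.31 for SNAI2, from -0.077 to 0.077 for ZEB1, from -0.18 to 0.079 for FN1 and from -0.077 to 0.21 for MYLK. In R5020 it ranged from -0.026 to 0.11 for TWIST1 and from -0.018 to 0.15 for ZEB1. The difference of responses ranged from -0.030 to 0.30 for SNAI2, from -0.027 to 0.17 for ZEB1 and from -0.25 to 0.016 for FN1.

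SNAI2, ZEB1, ZEB2 and VIM lay within the range of olfactory receptor probe sets on all 12 arrays. Calls were made in that range, of VIM for R5020 in siCt in 3 of 21 alternatives (adjusted p 0.0374 to 0.0486) and of the dimmer ZEB2 probe set in the mean response, and a missing call there does not show that a level was unchanged. With 3 arrays a condition, the median standard error of a difference between conditions was 0.13, and that of a difference of responses 0.19.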
